A study of Homo sapiens with 6 samples.

Results

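The transcriptome described here is that of H460 cells that had received a non-targeting siRNA (siNT), the control arm of a study of the long intergenic non-coding RNA HKlincR1. Genes were taken as expressed when their mean over the 3 siNT libraries was at least 0.5 RPKM, that is, reads scaled by the length of the gene model and by the depth of the library. This rule left 15432 genes, or 26.7%, of the 57773 genes listed. A further 13514 genes were above 0 in at least 1 of the 3 libraries but below the minimum, and 28827 genes had no read in any of them. The genes nearest to the minimum lay just above and just below 0.5 RPKM, with 665 genes between 0.4 and 0.5 RPKM and 516 between 0.5 and 0.6 RPKM, so the boundary is not a gap in the data.

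H460 is an established human large cell carcinoma line of the lung, one of the non-small-cell lung cancers. The study transfected H460 cells with a non-targeting siRNA or with an siRNA against HKlincR1 and sequenced polyA RNA on a strand-specific, paired-end protocol. The siNT cells were treated with a lipid transfection reagent and 50 nM of a commercial non-targeting siRNA and collected after 48 hours, so they are transfected cells and not untouched ones. The paper describes the 3 siNT libraries as biological replicates of this 1 line. With only 1 group of 3 libraries nothing was tested, and the values below are descriptions with the SD over the 3 libraries.

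A tumour cell line keeps part of the gene programme of the tissue it came from and loses another part. Lung epithelium is normally held together by E-cadherin junctions and marked, by region, by surfactant genes in the alveoli, secretoglobins and mucins in the airways, and TP63 with basal keratins in the basal layer. Large cell carcinoma is defined by the lack of such glandular, squamous or neuroendocrine features. Many lung tumours also switch off cell cycle inhibitors and express genes that are otherwise confined to the testis or the embryo.

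The RPKM values had been divided by 27752833, 30521000 and 24980280 reads for siNT replicates 1, 2 and 3, and 90.5% to 91.1% of these reads lay on listed genes. Because the values were deposited without rounding, the reads of each gene could be worked back from them. At this depth genes from 10 to 100 RPKM had a median of 6387 reads in the 3 libraries together, while genes from 0.5 to 1 RPKM had a median of 90. The 19 reference genes often used for qRT-PCR were all expressed, with ACTB, the cytoskeletal actin, the highest at 1710 RPKM. These genes are abundant, with a list median of 94.6 RPKM. Their detection therefore does not show whether a 0 listed for another gene is real. Replicate 3 stood apart from replicates 1 and 2 for several sets of genes. Stress, heat shock and some cytokine genes were among them, and their values are therefore given by library. Without it 15499 genes met the minimum.

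Among the genes of highest expression, chemokines that draw neutrophils stood beside the mitochondrial, ferritin and actin transcripts of a growing cell. CXCL1 (ENSG00000163739, chromosome 4, 74735110 to 74737025 on GRCh37) had 1368, 1454 and 1690 RPKM in siNT replicates 1 to 3, a mean of 1504 ± 167 (SD, n = 3), and ranked 15th of all expressed genes. GAPDH, the glycolytic enzyme, had 1465, 1437 and 1461 RPKM, a mean of 1454 ± 15.2. CXCL1 was thus below GAPDH in replicate 1, close to it in replicate 2 and above it in replicate 3. CXCL8 (ENSG00000169429, chromosome 4, 74606236 to 74609433), the interleukin-8 gene, had 875, 879 and 630 RPKM, and CXCL5 had 731, 760 and 562 RPKM. CXCL2 followed with 245, 248 and 156 RPKM and CXCL3 with 61.2, 59.2 and 43.5 RPKM. Replicate 3 was the highest library for CXCL1 and the lowest for CXCL8, CXCL5, CXCL2 and CXCL3.

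The rest of the family was far lower. CXCL16, a membrane-bound chemokine, had a mean of 8.99 ± 0.589 RPKM and CXCL6 0.816 ± 0.155 RPKM, which made 7 of 14 CXC chemokine genes expressed. Of all nuclear protein-coding genes 56.0% were expressed, so the count of 7 does not set this family apart. The same share is the background for the chemokine and interleukin counts that follow. CXCL9, CXCL10, CXCL12, CXCL13 and CXCL17 had no read in any library. CXCL9 and CXCL10 are induced by interferon, and for CXCL10 a count of 0 allows at most 0.0307 RPKM (3 reads over the 3 libraries, counting error only). Of 19 CC chemokine genes only CCL20 passed the minimum, with 14.8, 14.2 and 7.41 RPKM. Interleukins of the acute response were present too. IL6 had 71.3, 71.5 and 45.6 RPKM and IL1A 57.8, 60.7 and 19.1 RPKM, both lowest in replicate 3, and 7 of 35 interleukin genes were expressed. CXCL1, CXCL2 and CXCL3 are close copies of each other, so reads of one may have been given to another.

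**Figure D1:**
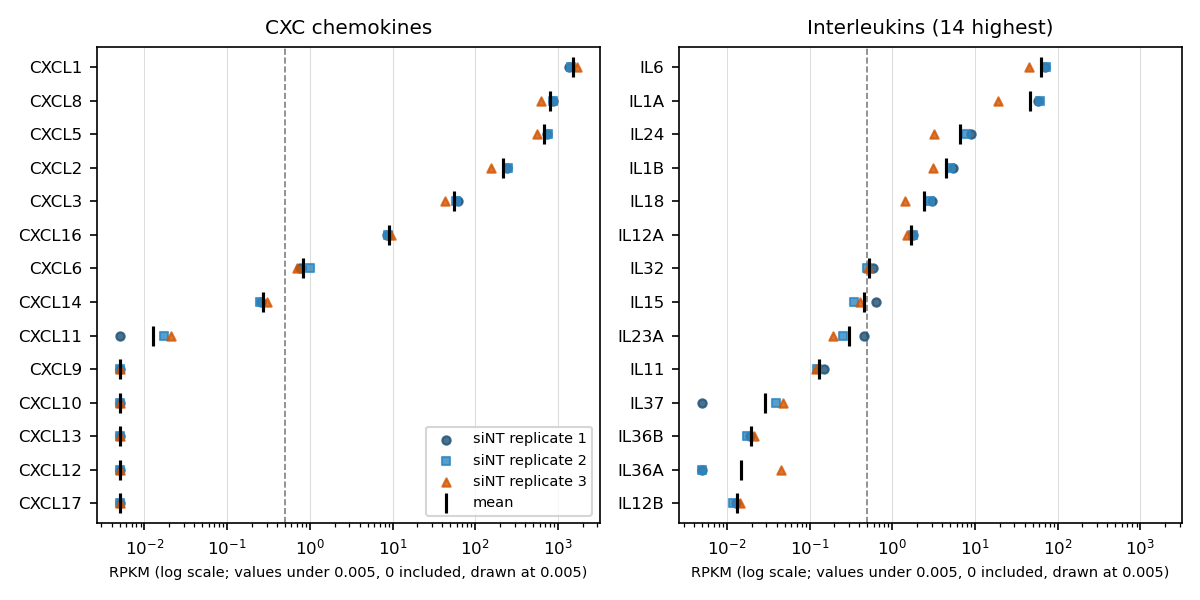
RPKM (log axis) of the 14 CXC chemokine genes, left, and the 14 interleukin genes of highest mean, right, in siNT replicates 1, 2 and 3 (circle, square, triangle), with the mean as a black bar and the minimum of 0.5 RPKM as a dashed line. CXCL1, CXCL8 and CXCL5 lie above 500 RPKM in every library, and 5 CXC chemokines sit at 0.

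The neutrophil chemokine genes lie in 1 cluster on chromosome 4, and their promoters are shown because 6 of them share a stretch of letters. The sequences are the 150 bases before the RefSeq start of each gene (GRCh38.p14), 5′ to 3′ on the gene's own strand, with GGAATTTCC in capitals. These letters are those of a binding site known for NF-kappaB factors, and the stretch was chosen after the values had been seen.
CXCL1 (chr4:73869243-73869392, plus strand): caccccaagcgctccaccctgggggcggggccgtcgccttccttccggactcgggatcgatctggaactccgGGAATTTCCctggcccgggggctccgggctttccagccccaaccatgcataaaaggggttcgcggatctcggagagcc
CXCL2 (chr4:74099196-74099345, minus strand): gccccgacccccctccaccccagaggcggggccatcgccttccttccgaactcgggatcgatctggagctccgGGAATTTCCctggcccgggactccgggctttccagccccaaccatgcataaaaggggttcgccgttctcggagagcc
CXCL3 (chr4:74038690-74038839, minus strand): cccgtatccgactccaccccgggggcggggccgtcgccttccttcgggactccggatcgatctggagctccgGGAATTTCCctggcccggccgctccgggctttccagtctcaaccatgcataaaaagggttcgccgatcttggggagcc
CXCL5 (chr4:73998678-73998827, minus strand): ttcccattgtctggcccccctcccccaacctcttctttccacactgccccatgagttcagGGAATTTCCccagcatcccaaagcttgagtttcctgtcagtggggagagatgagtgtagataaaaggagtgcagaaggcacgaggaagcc
CXCL6 (chr4:73836528-73836677, plus strand): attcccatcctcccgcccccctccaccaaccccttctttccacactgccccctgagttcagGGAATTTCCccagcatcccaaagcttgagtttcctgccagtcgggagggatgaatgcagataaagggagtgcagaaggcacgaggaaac
CXCL8 (chr4:73740419-73740568, plus strand): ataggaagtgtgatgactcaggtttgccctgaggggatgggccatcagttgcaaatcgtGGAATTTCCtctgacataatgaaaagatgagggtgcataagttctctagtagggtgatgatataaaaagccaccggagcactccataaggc

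The capitals begin 78 bases before the start in CXCL1 and CXCL3, 77 bases in CXCL2, 90 in CXCL5, 89 in CXCL6 and 91 in CXCL8. On either strand, the 250 bases before the start hold GGAATTTCC in 117 of 27305 RefSeq promoters, or 0.428%. Genes with these letters had unlike levels. CXCL6, with the same letters at a like distance, had 0.816 RPKM, and CXCL10 and CXCL11, which also hold the motif in their 250 bases, had 0 and 2 reads in the 3 libraries together. A match is a description of the sequence, and binding was not measured.

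By class, the expressed genes were mostly protein-coding. In the GENCODE v44 annotation of GRCh37, 10870 expressed genes were protein-coding (70.4%), 13 of them on the mitochondrial genome, 2671 were processed pseudogenes (17.3%), 946 were long non-coding RNAs (6.13%), 309 were other pseudogenes and 295 were small or other RNAs. Identifiers of 321 expressed genes were not found in the annotation. The classes differed in the share of their listed genes that were expressed, which was 56.0% of nuclear protein-coding genes, 26.4% of processed pseudogenes and 7.25% of long non-coding RNAs. The share of 56.0% is the background for all counts of expressed list and family members given here. The median expressed protein-coding gene had 6.74 RPKM and the median long non-coding RNA 1.23 RPKM.

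Few genes held much of the signal. The 100 highest genes made up 32.9% ± 0.794 of the summed RPKM (SD, n = 3) but 14.6% ± 0.416 of the reads, since RPKM weights short genes up. Of the 25 highest genes 12 were encoded in the mitochondrial genome, 7 were nuclear protein-coding genes and 6 were pseudogenes. MT-ND4, a complex I subunit, was the highest with 5985, 5538 and 5922 RPKM. The other 11 were MT-CO2, MT-ND4L, MT-CO1, MT-ATP6, MT-CO3, MT-ATP8, MT-ND1, MT-RNR2, MT-ND2, MT-CYB and MT-ND5, with means down to 1018 RPKM. The 33 expressed mitochondrial genes took 14.5% ± 0.705 of the summed RPKM and 4.36% ± 0.278 of the reads.

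The 7 nuclear protein-coding genes among the 25 were FTL, TMSB10, ACTB, CXCL1, GAPDH, FTH1 and ACTG1. FTL, the ferritin light chain, had 5218, 5048 and 5799 RPKM, and FTH1, the heavy chain, 1211, 1222 and 1141 RPKM. TMSB10, an actin-binding thymosin, had 2097, 2064 and 2118 RPKM. The next protein-coding genes by mean were HSP90AB1, EEF2, CXCL8, S100A6, CXCL5, PRDX1, HSP90AA1 and ENO1, which are chaperones, a translation factor, a calcium-binding protein, a peroxidase and a glycolytic enzyme beside the chemokines. SPP1, the secreted osteopontin, had 486, 528 and 512 RPKM, and TFPI2, a secreted protease inhibitor, 536, 506 and 356 RPKM.

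**Figure D2:**
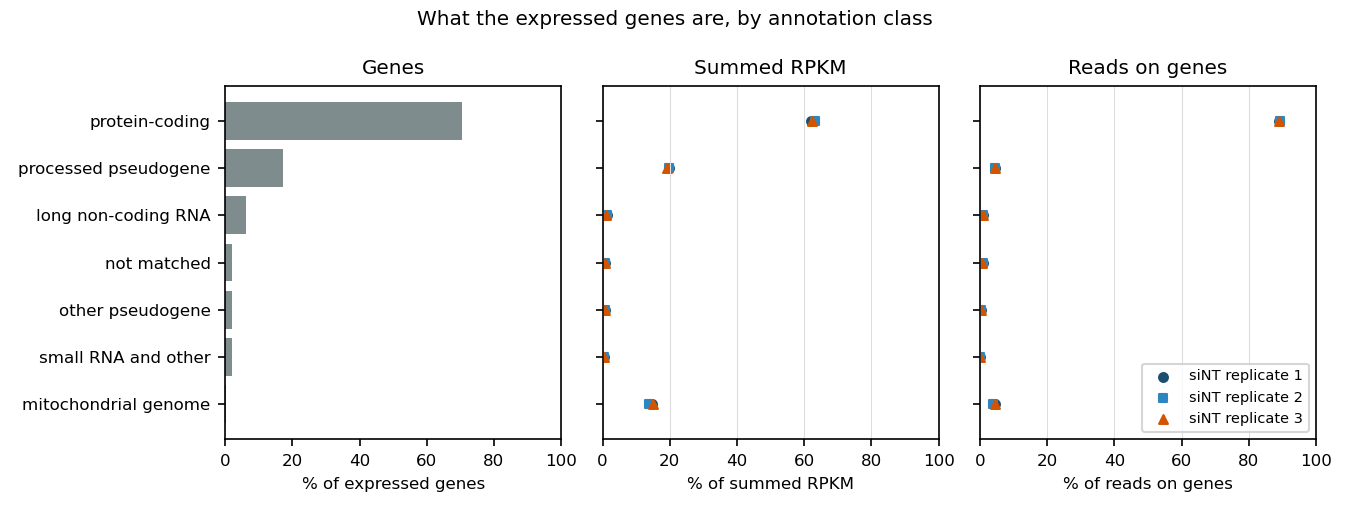
Share of the 15432 expressed genes in each annotation class (bars, left), of the summed RPKM (middle) and of the reads on genes (right) in each siNT library (points, axes from 0 to 100%). Processed pseudogenes reach 19.6% of the summed RPKM on average but 4.51% of the reads.

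Processed pseudogenes, which are copies of spliced messenger RNAs in the genome, included some of the highest values in the table, although their median of 2.76 RPKM was below that of protein-coding genes. They held 19.6% ± 0.372 of the summed RPKM but 4.51% ± 0.0598 of the reads. PPIAP22, a copy of the cyclophilin A gene PPIA, had 1506, 1432 and 1584 RPKM, against 96.0, 88.7 and 99.2 RPKM for PPIA itself. The next by mean were RPL39P3, NPM1P27, RPL13AP5, FTLP3, EEF1A1P5 and RPL36AP37, then ENSG00000218426, RPL3P4 and ENSG00000218175, and among the other pseudogenes MTATP6P1, a nuclear copy of a mitochondrial gene, had 1115 RPKM. RPL39P3 had 1387, 1122 and 1294 RPKM, while its parent RPL39, a ribosomal protein gene, had 3.55, 2.69 and 2.99 RPKM. RPL36A, another ribosomal protein gene, had a mean of 1.74 RPKM beside 973 RPKM summed over 11 of its pseudogenes.

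Of the 2671 expressed processed pseudogenes, 1931 had a protein-coding parent by name, and the parent was expressed for 1916 of them. The pseudogene exceeded its parent in 272 cases. For 239 of 995 parents, and for 53 of 76 parents that encode cytosolic ribosomal proteins, the pseudogenes' RPKM summed to more than the parent's. Ribosomal protein pseudogenes alone summed to 21603 RPKM, against 8977 RPKM for the 84 ribosomal protein genes. Reads of near-identical copies cannot be told apart reliably, so the values of these pairs are uncertain.

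Among the 4844 genes with at least 10 RPKM, the genes with a large coefficient of variation (CV, the SD over the mean) included HSPA1A (81.5%), CHAC1 (76.8%) and HSPA1B (74.8%), which are described further down with the libraries.

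Short genes were counted on few reads. The 112 expressed snoRNAs had a median gene model of 112 nt and a median of 13 reads in all 3 libraries, and the 92 expressed microRNA genes a median of 82 nt and 8 reads. Of all expressed genes 182 (1.18%) rested on fewer than 10 reads in total, and 141 of these were small or other RNAs. A polyA protocol does not capture these RNAs as such.

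The long non-coding RNAs were led by SNHG29, a host gene of small nucleolar RNAs, with 214, 199 and 191 RPKM. LINC00824 followed with 102, 108 and 108 RPKM and ZFAS1 with 72.5, 70.9 and 70.8 RPKM. The next in order were PPP1R3B-DT (69.8 RPKM), SNHG16 (57.3 RPKM), SNHG8 (55.4 RPKM), ENSG00000272405 (54.2 RPKM), BCAN-AS2 (53.1 RPKM), GAS5 (45.2 RPKM) and NEAT1 (40.8 RPKM). NEAT1, the RNA scaffold of nuclear paraspeckles, varied more than most, with 49.9, 40.7 and 31.7 RPKM. HKlincR1 itself (ENSG00000170846), which the v44 annotation labels as protein-coding, had 3.62, 3.47 and 3.83 RPKM and ranked 8997th of the 15432.

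Among the lineage markers several keratin genes were expressed, while CDH1, the E-cadherin gene, was not. Of 19 genes for epithelial junctions and keratins 11 were expressed, a share near the 56.0% of all nuclear protein-coding genes. Keratin 18 (KRT18, chromosome 12, 53342655 to 53346690) had 80.6, 80.4 and 86.2 RPKM, KRT19 had 35.72, 35.98 and 52.99 RPKM and KRT8, the partner of KRT18, 31.6, 32.1 and 30.8 RPKM. The tight junction genes CLDN1 (55.8 ± 8.06 RPKM) and TJP1 (23.3 ± 2.10 RPKM) and the desmosomal cadherin DSG2 (38.4 ± 0.796 RPKM) were expressed as well.

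CDH1, which encodes E-cadherin (ENSG00000039068, chromosome 16, 68771195 to 68869440), had no read in any library. A count of 0 allows at most 0.00586 RPKM. ESRP1, the epithelial splicing regulator, also had no read. EPCAM had 0.0858, 0.0650 and 0.0159 RPKM, and GRHL2, a transcription factor that maintains epithelial junctions, 4 reads in the 3 libraries together. Other cadherins were expressed. CDH19 had 18.92, 19.08 and 19.99 RPKM, CDH10 14.8, 16.9 and 14.2 RPKM, CDH13 a mean of 8.23 RPKM and CDH7 a mean of 5.44 RPKM. In all 6 of 23 cadherin genes passed the minimum, and neither CDH2 (N-cadherin, 0.0276 RPKM) nor CDH3 was among them.

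Beside the keratins, 10 of 15 mesenchymal genes were expressed, where 56.0% of all nuclear protein-coding genes were. Such counts lie not far from the general share, so they do not by themselves mark a lineage. Vimentin (VIM, chromosome 10, 17270240 to 17279592) had 396, 390 and 376 RPKM, fibronectin (FN1) 107, 112 and 107 RPKM, and S100A4 52.9, 51.9 and 61.8 RPKM. ZEB1, a repressor of E-cadherin, had 5.43, 5.72 and 5.31 RPKM, SNAI1 a mean of 3.10 RPKM and SNAI2 0.817 RPKM, while TWIST1 had no read. VIM varied by a CV of 2.77% and S100A4 by 9.75%.

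**Figure D3:**
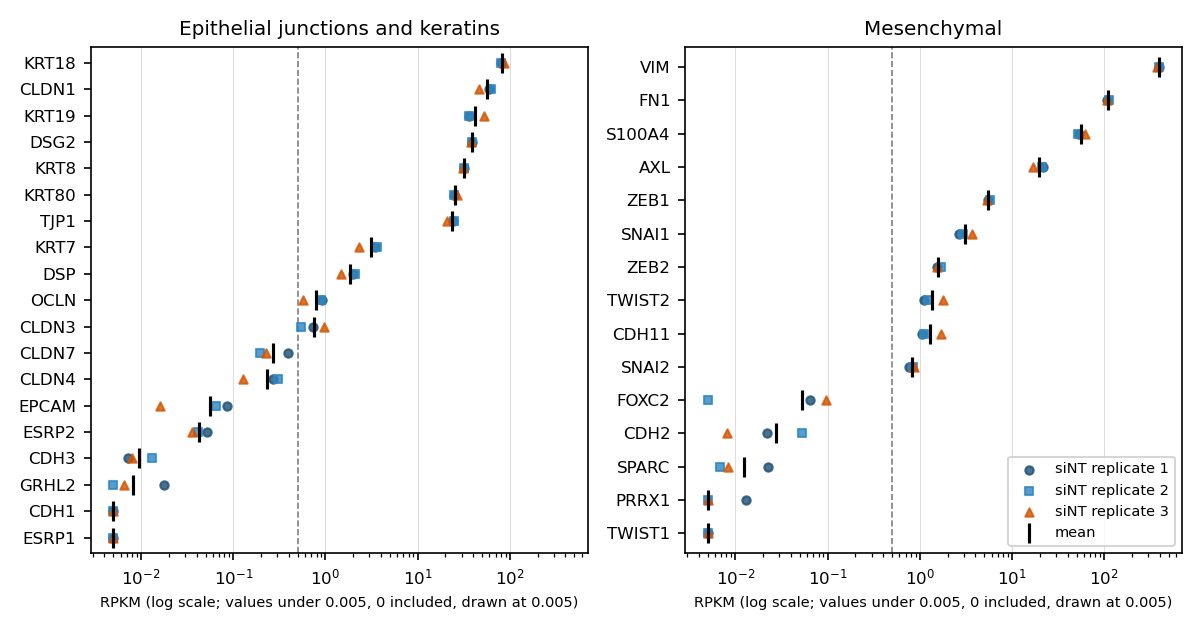
RPKM (log axis) of the 19 epithelial and the 15 mesenchymal list genes in siNT replicates 1, 2 and 3 (circle, square, triangle), with the mean as a black bar and the minimum of 0.5 RPKM as a dashed line. KRT18 and VIM lie high on their lists in every library, while CDH1, ESRP1 and TWIST1 sit at 0.

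Most markers of specialised lung cells were below the minimum, with the secretoglobin SCGB3A2 a clear exception. Of 16 alveolar genes 5 were expressed, but these were CAV1 (42.0 RPKM), HOPX, AGER, RTKN2 and ABCA3, none above 2 RPKM save CAV1, a caveolar gene that many cells use. NKX2-1, the lung transcription factor, had 3 reads in the 3 libraries, and SFTPB, SFTPD and SFTPA2 had none. Of 15 airway genes 2 were expressed, the secretoglobin SCGB3A2 (12.57, 11.98 and 13.59 RPKM) and the mucin MUC1 (5.21, 4.34 and 3.72 RPKM). SCGB1A1, MUC5AC and BPIFA1 had no read.

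The basal and squamous list had 3 of 15 genes expressed, SOX2 (3.13, 3.80 and 4.45 RPKM), S100A2 (2.91 RPKM) and KRT15 (0.502 RPKM). TP63 had 8 reads in the 3 libraries, and KRT14 none. Of 16 neuroendocrine genes 5 were expressed. UCHL1, a deubiquitinase of neurons, stood far above the others with 235, 217 and 232 RPKM, while SCG2 (4.88 RPKM), ENO2 (4.201 RPKM) and DLL3 (1.89 RPKM) were low, the adhesion gene NCAM1 lay at 0.567 RPKM and the factor INSM1 had no read. Of 19 gut and foregut transcription factors found by name, SOX9 (13.1 RPKM), FOXA1 (10.5 RPKM), KLF5 (6.97 RPKM) and GATA6 (0.815 RPKM) were expressed, and HNF4A and CDX2 had no read.

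No marker of immune cells (0 of 13) or endothelium (0 of 7) reached the minimum, the highest being CD14 at 0.146 RPKM. Of 12 fibroblast and smooth muscle genes 4 were expressed, led by COL3A1 (15.6, 14.2 and 13.1 RPKM), while DCN, PDGFRA, THY1 and FAP had no read. In the erythroid list the alpha globin genes HBA2 (1.63 RPKM) and HBA1 (1.14 RPKM) were expressed, and HBB and ALAS2 had no read. HBA1 and HBA2 are near-identical copies whose values are uncertain. Over the 10 cell type lists 42 of the 133 genes found by name were expressed. In bulk RNA a few cells with much of a transcript cannot be told apart from many cells with little.

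Of 44 collagen genes 16 were expressed. COL5A2, a chain of fibrillar collagen V, had 211, 218 and 200 RPKM, COL8A1 a mean of 88.8 RPKM and COL4A6, a basement membrane chain, a mean of 43.3 RPKM, while COL5A1 and COL5A3 were below the minimum. Of 12 laminin genes 9 were expressed, led by LAMC1 (70.0 RPKM) and LAMB1 (60.9 RPKM). Of 26 integrin genes 10 were expressed. ITGB1, the common beta subunit, had 118, 128 and 113 RPKM, and the laminin receptor subunit ITGA6 had 31.7, 33.4 and 33.6 RPKM. Matrix metalloproteinase genes were low, with 4 of 20 expressed and MMP15 the highest at 6.66 RPKM.

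The share of tumour suppressor genes expressed differed between the lists. Of 94 genes found by name over 4 lists, 64 were expressed, 20 had reads below the minimum and 10 had none. Of all nuclear protein-coding genes 56.0% were expressed, so the pooled count does not set these genes apart. In the cell cycle list 11 of 15 were expressed. CDKN1A, the p21 inhibitor of cyclin-dependent kinases, had 34.9, 35.7 and 41.3 RPKM and RB1 11.5, 11.6 and 11.0 RPKM. The 4 below the minimum were CDKN2A, CDKN2B, TP73 (0.0376 RPKM) and CDKN1C (0.116 RPKM).

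Of 22 signalling suppressors 20 were expressed. KEAP1, the adaptor that targets NRF2 for degradation, had 17.7, 17.7 and 20.6 RPKM and STK11, the LKB1 kinase, 5.93, 5.75 and 6.37 RPKM. PTPN13 (0.243 RPKM) and LRP1B (0.00645 RPKM) were below the minimum. Of 22 chromatin and repair genes 21 were expressed, led by FH at 140 RPKM, and the exception was MGMT, which repairs alkylated guanine, with 0.537, 0.405 and 0.529 RPKM, a mean just below the minimum. RNA levels do not show whether the protein made from them is intact.

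The list of genes often methylated in lung cancer had the lowest share of expressed genes of the 4, 12 of 35 found by name. TIMP3, SFRP1, SFRP2, SFRP5, WIF1, DLEC1, SOX1 and OPCML had no read. Of these, SFRP1, SFRP2, SFRP5 and WIF1 encode secreted inhibitors of WNT ligands, and 4 of 19 WNT ligand genes were expressed, led by WNT10B (8.64 RPKM). FHIT had 0.0258 RPKM, DAPK1 0.0317 RPKM and RARB, a retinoic acid receptor, 0.104 RPKM. RASSF1 (3.11, 2.78 and 3.09 RPKM) and CDH13 (8.43, 8.05 and 8.22 RPKM) were expressed, and UCHL1, which is also on this list, was its highest member. Methylation was not measured.

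CDKN2A, which encodes the p16 inhibitor and p14ARF (ENSG00000147889, chromosome 9, 21967751 to 21995300, minus strand, GRCh37), had 0 reads in each library, which allows at most 0.00819 RPKM. CDKN2B (22002902 to 22009304), the p15 inhibitor, also had 0 reads, with a limit of 0.00901 RPKM, and the long non-coding RNAs CDKN2B-AS1 and CDKN2A-DT had none either. The neighbour MTAP, a methionine salvage enzyme that starts 193 kb away (21802635 to 21937650), had 15.9, 15.3 and 14.2 RPKM on 3524, 3743 and 2838 reads.

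Within 2 Mb on each side of CDKN2A the table listed 74 genes, 25 of them protein-coding, and 16 of the 25 had no read. The interferon genes accounted for 13 of these 16, and the remaining 3 were CDKN2A, CDKN2B and HACD4, which lies between FOCAD and KLHL9. The other 3 interferon genes had 36 reads between them, 34 in IFNE. The 4 protein-coding genes that were expressed, MLLT3 (2.83 RPKM), FOCAD (4.64 RPKM), KLHL9 (5.71 RPKM) and MTAP, all lay on the same side of CDKN2A. On the other side DMRTA1 had 0.194, 0.206 and 0.237 RPKM and ELAVL2 0.358, 0.402 and 0.366 RPKM. In the same window, 4 processed pseudogenes passed the minimum, and the highest of them, which is not named here, lies near CDKN2A. KHSRPP1 (6.75, 7.38 and 6.84 RPKM) and CLIC4P1 (7.07, 7.59 and 6.58 RPKM) lay farther away, and reads of such copies cannot be told apart reliably from those of their parents. DNA was not measured.

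**Figure D4:**
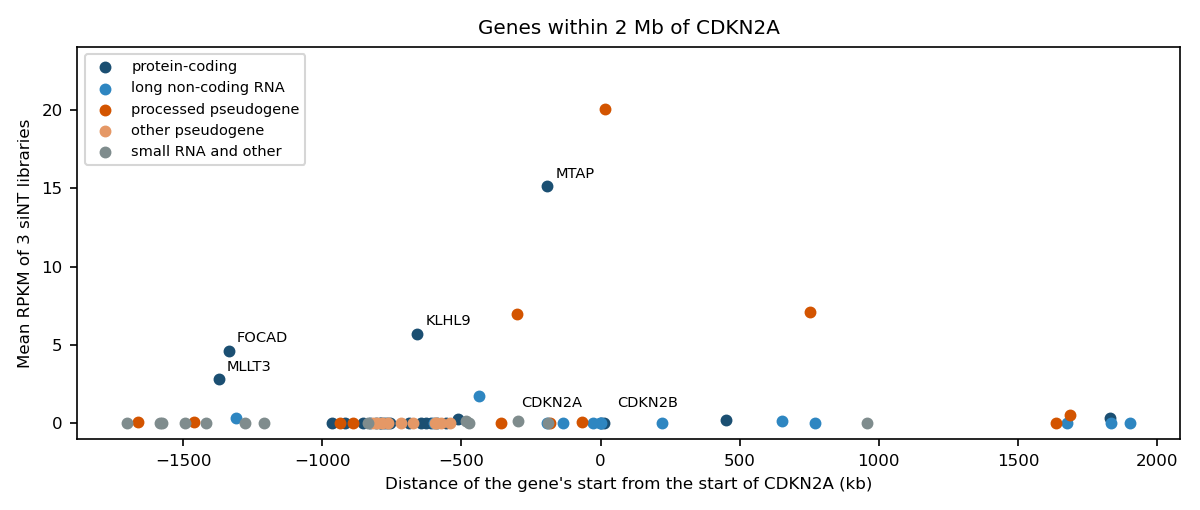
Mean RPKM of the 3 siNT libraries for the genes within 2 Mb of CDKN2A, against the distance of each gene's start from that of CDKN2A in kb, coloured by annotation class. CDKN2A and CDKN2B sit at 0 next to MTAP at 15.1 RPKM, and the highest point, near CDKN2A, is a processed pseudogene.

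Genes of the NRF2 response, which guard against oxidants, were all expressed, 24 of 24, with a list median of 95.5 RPKM against 5.07 RPKM over all expressed genes. FTL and FTH1 led the list. TXN had 410, 390 and 410 RPKM, and NQO1, a quinone reductase, 322, 297 and 314 RPKM. AKR1B10 differed between libraries, with 29.79, 30.02 and 58.17 RPKM.

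All 15 core genes of the RAS-MAPK pathway were expressed, and 16 of 17 of its feedback and target genes. DUSP4 (56.2, 55.6 and 52.3 RPKM) and FOSL1 (39.2, 39.9 and 45.5 RPKM), a phosphatase and an AP-1 subunit induced by ERK, were among the highest, and EREG (0.151 RPKM) was the exception. Of the 16 expressed feedback and target genes, 13 had their lowest value in replicate 3 and 3 their highest. Of 50 receptor tyrosine kinase genes 21 were expressed. EPHA2 (29.5 ± 0.315 RPKM), MET (24.9 ± 0.340 RPKM), AXL (19.8 RPKM) and IGF1R (15.9 RPKM) were above EGFR (6.43, 6.82 and 5.30 RPKM), and ALK, KIT and PDGFRA had no read. Comparisons of levels between genes are per kilobase of gene model.

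Class I antigen presentation was present and class II was not. Of 24 genes 19 were expressed, with B2M, the light chain of class I molecules, at 233, 239 and 229 RPKM, while CIITA, HLA-DRA and CD74 had no read. CD274, which encodes PD-L1, had 21.8, 22.3 and 16.8 RPKM. Of 25 SWI-SNF subunit genes 22 were expressed. SMARCA4, an ATPase of the complex, had 22.8, 23.1 and 23.2 RPKM, and the neuronal subunits ACTL6B and DPF3 had no read.

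Cancer-testis genes were silent with 3 exceptions of 52 found by name. MAGEB2 had 57.7, 60.3 and 60.3 RPKM, MAGEA1 56.8, 54.2 and 61.2 RPKM and PRAME 19.8, 20.6 and 25.3 RPKM. No other member passed 0.2 RPKM, and MAGEA1 was the only one of 9 MAGE-A genes above the minimum. MAGEB2 and MAGEA1 lie on chromosome X, and so does NR0B1 (34.9, 32.8 and 31.4 RPKM), the highest of 47 nuclear receptor genes, of which 25 were expressed. NR4A1 (21.2 RPKM) and ESRRA (18.4 RPKM) followed. Of 19 oncofetal and stem cell genes 7 were expressed, led by HMGA1 (196, 204 and 206 RPKM), a chromatin protein of the embryo, and IGF2BP3 (23.9, 24.6 and 20.5 RPKM), while POU5F1, NANOG, LIN28B and AFP had no read.

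The HOX genes, which record position along the body axis, were expressed in part, 18 of 39. In the HOXA cluster 7 of 11 were expressed, HOXA3 the highest with 4.35, 4.36 and 4.39 RPKM, followed by HOXA5, HOXA10, HOXA6, HOXA9, HOXA11 and HOXA2. In the HOXB cluster 6 of 10 were expressed, HOXB7 (10.3, 10.8 and 11.3 RPKM), HOXB6, HOXB9, HOXB5, HOXB13 and HOXB8, and HOXB1 to HOXB4 were below the minimum. HOXC8, HOXC9 and HOXC13 were the 3 of 9 in HOXC, none above 2 RPKM. In HOXD only HOXD13 (2.76 RPKM) and HOXD8 (1.36 RPKM) of 9 were expressed, and HOXD1, HOXD3, HOXD4, HOXD10 and HOXD11 had no read. HOXA6 lay above HOXA9 in every library (3.03, 2.68 and 3.36 against 2.40, 2.03 and 2.75 RPKM), while HOXA6 and HOXA10 (2.61, 3.00 and 3.67 RPKM) changed places between libraries.

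Expressed genes had promoters rich in CpG. For 18510 genes with a promoter in the RefSeq table (250 bases before to 50 after the start, GRCh38.p14), 9382 of them expressed, the median ratio of observed to predicted CpG was 0.853 for expressed and 0.381 for other genes. It was 0.263 for genes with no read, 0.613 for genes with reads below the minimum, 0.827 from 0.5 to 5 RPKM, 0.869 from 5 to 50 RPKM and 0.880 from 50 to 500 RPKM, but 0.725 for the 13 genes at 500 RPKM or more. The letters TATAAA, on the gene's strand from 40 to 21 bases before the start, were in 5.76% of promoters of genes with no read, in 1.38% from 5 to 50 RPKM and in 4.81% from 50 to 500 RPKM. Of 13 genes at 500 RPKM or more with a promoter in the sequences available, 2 held TATAAA, and 3 held GGAATTTCC, namely CXCL1, CXCL5 and CXCL8. GGAATTTCC was chosen from these same chemokines, so their count was fixed in advance and says nothing about highly expressed genes in general. From 50 to 500 RPKM it was in 2 of 540 promoters (0.370%), and over all levels in 79 of 18510 (0.427%).

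The 3 libraries were close to each other, and replicate 3 was the one apart. The median CV of expressed genes was 8.18%. It fell from 19.6% at 0.5 to 1 RPKM to 10.0% at 1 to 5 RPKM, 6.58% at 5 to 10 RPKM and 5.99% at 10 to 100 RPKM. The CV predicted from the reads for counting error alone had a median of 18.9% in the lowest range and 2.18% from 10 to 100 RPKM. A CV taken from 3 libraries runs lower in the median, as a simulated CV of 10% gave 8.40%. These figures are therefore not like measures, and how near the lowest genes came to the counting limit was not settled. The spread of the other genes was above it. Without replicate 3 the median CV was 4.598%.

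The median difference between replicates 1 and 2 was 0.09 on the log2(RPKM + 0.1) scale, against 0.15 between 1 and 3 and 0.16 between 2 and 3, over 15432 genes. Pearson correlations across genes, which are not independent replicates, were 0.986, 0.979 and 0.980. Even replicates 1 and 2 differed by more than counting error, with a median chi-square per gene of 2.02 where counting alone gives 0.455. This value cannot tell separate cultures from separate library preparations. The libraries were counted as separate samples because the paper describes them as biological replicates. Of the 4844 genes with at least 10 RPKM, replicate 3 was the farthest from the mean for 54.7%, and it lay more than 1.5 times below the mean of the others for 53 genes and above it for 13.

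The genes that set replicate 3 apart included members of known programmes, and the lists used to describe them were chosen after the values had been seen. Of 30 genes known as targets or partners of ATF4, the transcription factor of the amino acid response, 28 were expressed, and 26 of these were lowest in replicate 3, as were 40.7% of all expressed genes. CHAC1, which degrades glutathione, had 26.1, 27.3 and 2.11 RPKM. ASNS, the asparagine synthetase, had 43.5, 43.4 and 14.5 RPKM, SESN2 17.1, 16.7 and 5.48 RPKM and DDIT4, an inhibitor of mTORC1, 578, 574 and 344 RPKM. The list's median log2 ratio of replicate 3 to the mean of the others was -0.73, against -0.01 over all expressed genes.

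Heat shock genes went the other way. Of 22 chaperone genes and their cofactors 21 were expressed, and all 21 were highest in replicate 3, as were 38.6% of all expressed genes. The list's median log2 ratio was 0.33. HSPA1A had 20.1, 21.0 and 75.4 RPKM, its near-identical copy HSPA1B 21.8, 21.6 and 71.2 RPKM, DNAJB1 22.6, 22.7 and 44.6 RPKM and HSPA8 295, 306 and 546 RPKM. IL1A, CCL20, DUSP5 (45.6, 41.1 and 20.6 RPKM) and IGFBP3 (32.7, 29.9 and 13.5 RPKM) were lower in replicate 3. The shift was not confined to these genes. Of 16 expressed RAS-MAPK feedback and target genes 13 were lowest in replicate 3 and 3 highest. For collagens 12 of 16 were lowest and 3 highest, and for laminins 7 of 9 were lowest and 1 highest. Of all expressed genes 40.7% were lowest in replicate 3. The depth of replicate 3 was the lowest of the 3, and what part depth, culture or handling had in these differences was not tested.

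**Figure D5:**
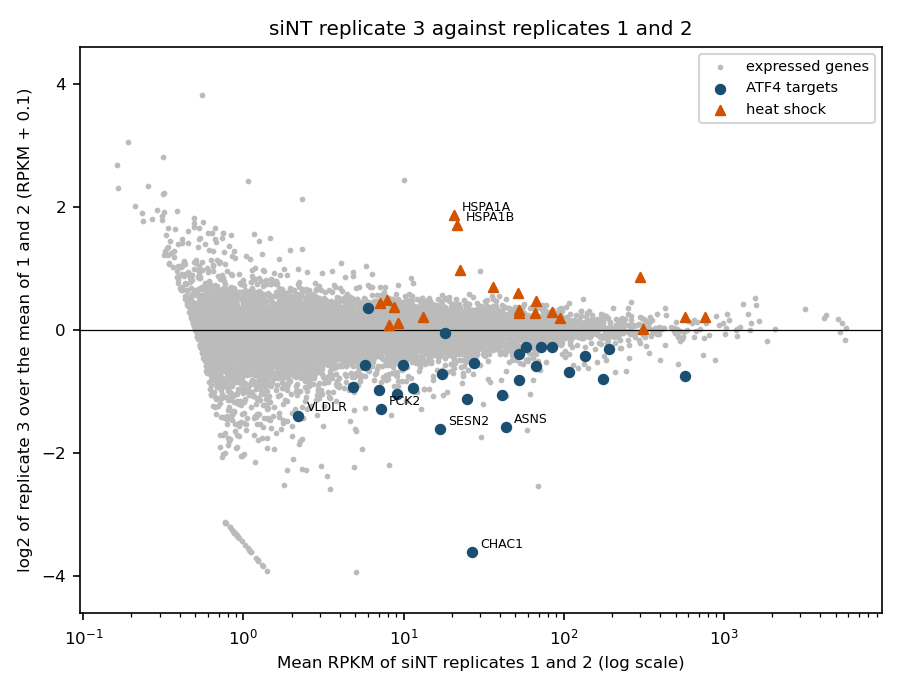
Log2 ratio of siNT replicate 3 to the mean of replicates 1 and 2, on RPKM + 0.1, against that mean on a log axis, for the expressed genes (grey, those at 0 in both replicates 1 and 2 not drawn), ATF4 target genes (blue circles) and heat shock genes (orange triangles). CHAC1 is the lowest blue point at -3.60, and HSPA1A the highest orange point at 1.87.

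The steadiest genes with at least 10 RPKM were VPS35 (18.7, 18.7 and 18.7 RPKM), PNPLA2, TMEM94, TRMT6 and HNRNPA3, with CVs from 0.0987% to 0.262%. VPS35 is a subunit of the retromer, which recycles membrane proteins, and HNRNPA3 binds RNA. Of the 4844 genes 120 had a CV under 1%, so with 3 libraries the lowest CVs do not set these 5 genes apart. GAPDH (1.05%) was among the steadier of the common reference genes, and ACTB had 1627, 1669 and 1832 RPKM, a CV of 6.34%.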

How the data were processed

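PolyA RNA of H460 cells was sequenced as 75 bp paired ends. Per the labels and the submitters' processing notes, the authors ran CASAVA 1.8.2 and featureCounts on hg19 and deposited RPKM values per Ensembl v74 gene. The aligner is not given in the sources used here. The 3 siNT columns were analysed. The 3 knockdown columns served only to work back library totals, gene lengths and reads from the unrounded RPKM, which gave whole reads for 100% of nonzero siNT values (relative tolerance 1e-06). Where a gene had few reads, the smallest whole numbers that fit were used and may understate them. On simulated data the reads were recovered exactly for 4373 of 4416 genes averaging 10 reads or more. Names and classes came from GENCODE v44 on GRCh37, which held 55538 of 57773 identifiers. Of the list members, 8 were not matched by name, among them PECAM1, RASSF5, MAGEA2, CTAG1A, SSX4, CT45A5 and NR2E3. Parents of pseudogenes were taken from the symbol.

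The members and lists were chosen with earlier results of these data known. Named genes were the 25 highest by mean, the 10 highest long non-coding RNAs, the highest and lowest CVs, leading or silent list members, genes within 2 Mb of CDKN2A and the HOX genes. Family members (cadherins, claudins, keratins, chemokines, interleukins, S100 proteins, small proline-rich proteins, collagens, laminins, mucins, metalloproteinases, WNT ligands), the chemokine promoters and the ATF4 and heat shock genes were chosen after their values were seen. A few genes that fall under the rule are left out of this text. Levels are means with the SD over 3 libraries, no test was made, and limits from 0 reads use 3 reads. Alternatives changed the minimum, scaling, gene sets and pseudocount, and left out each library. Python 3.11.15, pandas 2.3.3 and numpy 2.4.6 were used.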

Additional observations from a re-analysis of the deposited data

How the results depend on the processing

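No paired analysis was possible because the description rests on 1 group and no result comes from a test. The number of expressed genes stayed within 1.5 times of 15432 under every alternative minimum and scaling, and rose to 28946 without a filter. The protein-coding share of 70.4% became 59.5% with a minimum of 0.1 RPKM, 75.5% with 1 RPKM and 73.4% with 0.5 RPKM in every library. It was 62.2% when every library was rescaled to the same sum (TPM) and the minimum was kept at 0.5. That sum is larger than the summed RPKM of 301197 to 311423, so 0.5 TPM is a lower minimum, which 19231 genes passed. The 62.2% therefore cannot be read as an effect of rescaling alone. The share of the 100 highest genes was 14.6% when reads were counted, 23.3% without mitochondrial genes and, an alternative added after seeing the data, 35.4% without pseudogenes. The median CV of 8.18% became 6.21% for genes of at least 5 RPKM and 11.0% for genes of at least 0.1 RPKM. The median CpG ratio of 0.853 was 0.857 with a minimum of 1 RPKM and 0.855 for protein-coding genes. Leaving out each library in turn gave 15392 to 15499 expressed genes, protein-coding shares of 70.2% to 70.6%, 40 to 42 cell type markers, 29 to 30 tumour suppressors below the minimum, shares of the 100 highest genes of 32.6% to 33.4%, and median CVs of 4.598% (without replicate 3) to 8.09%. Counts of markers, tumour suppressors, HOX genes and silent genes around CDKN2A stayed within 1.5 times under the alternatives run. Low genes and short RNAs rest on few reads, and values of near-identical copies are uncertain.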

Other observations

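Further members of the S100 family and the small proline-rich genes, which are known from keratinising epithelia, were expressed in part. S100A6 had 738, 626 and 750 RPKM, S100A11 264, 272 and 285 RPKM and S100A10 101, 105 and 134 RPKM, and 9 of 15 S100A genes were expressed, while S100A8 and S100A7 were near 0. SPRR2A had 23.3, 27.3 and 16.1 RPKM and SPRR2D 17.1, 13.4 and 9.05 RPKM, with the SPRR1 genes, SPRR3 and SPRR4 at or near 0. The SPRR2 genes are close copies, so their separate values are uncertain. Of 24 claudin genes 4 were expressed, CLDN1, CLDN12 (6.19 RPKM), CLDN15 (4.15 RPKM) and CLDN3 (0.750 RPKM), and of 17 mucin genes only MUC1. Of 55 keratin genes 8 were expressed, among them KRT80 (25.5 RPKM) and KRT10 (13.4 RPKM).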
